A study of Lactuca sativa with 6 samples.

Results

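By their descriptions, the genes reported here make and inactivate indole-3-acetic acid (IAA), the main natural auxin. They are the 3 *YUCCA* (*YUC*) genes and the 7 *GH3* genes among the 2579 genes of the deposited expression table, 10 genes in all, and they were chosen by gene ID from their descriptions. In leaves of *LsAP2*-OE lettuce, all 3 *YUC* genes and 5 of the 7 *GH3* genes were lower than in WT, and the other two *GH3* genes were higher. Mean values of the lower genes were 2.33-fold to 8.29-fold lower in *LsAP2*-OE leaves, and those of the higher pair were 2.72-fold and 3.16-fold higher.

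Young leaves were taken from 1-month-old *LsAP2*-OE plants (3 libraries) and from WT plants of the same age (3 libraries) of the lettuce cultivar S39. The *LsAP2*-OE plants carry the full coding sequence of *LsAP2*, a repressor of transcription, behind the cauliflower mosaic virus 35S promoter, which is active in most plant tissues. WT plants carry no transgene, and the sources used here do not say which overexpression line was sequenced, so an effect of a single line and an effect of *LsAP2* cannot be told apart. The comparison asks how high *LsAP2* expression changes the leaf transcriptome.

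*LsAP2* (Lsat_1_v5_gn_3_89681) was checked first. Its normalized expression values were 214, 209 and 224 in the *LsAP2*-OE libraries, against 25.3, 27.9 and 30.5 in the WT libraries. Every library labelled *LsAP2*-OE was thus above every WT library. All genes of the table had been called different by the authors between these same 6 libraries. A *YUC* or *GH3* gene that they did not call is therefore not analysed here, and no count or p-value from the table is independent evidence of a difference. The values are the authors' normalized signal, whose kind of normalization is not named, so no gene is called more or less expressed than another. Ratios of copies and sums over marker lists are used only to compare the groups. Over the listed genes the values of a library sum to 97790 to 112997, and the read depth is unknown. Each description names the best Swiss-Prot match as the table lists it.

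Auxin is made mainly from tryptophan in a short pathway. An aminotransferase first makes indole-3-pyruvate, and YUC flavin monooxygenases turn it into IAA, the step that usually limits the rate in *Arabidopsis*. GH3 enzymes act at the other end. They join IAA to amino acids, which stores the hormone or marks it for breakdown, and in *Arabidopsis* many *GH3* genes are themselves quickly induced by auxin. In young leaves, local auxin synthesis is known for its part in blade outgrowth, margin shape and vein patterning.

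*LsYUC4a* (Lsat_1_v5_gn_1_42980) and *LsYUC4b* (Lsat_1_v5_gn_3_83960) are both described as YUCCA4, which in *Arabidopsis* acts with other *YUC* genes in leaf and flower development. *LsYUC4a* had values of 1.89, 1.51 and 1.96 in the *LsAP2*-OE libraries, against 4.29, 5.16 and 4.66 in the WT libraries. All *LsAP2*-OE libraries lay below all WT libraries. Its mean was 1.79 ± 0.241 in *LsAP2*-OE and 4.70 ± 0.439 in WT (SD, n = 3 each), which is 2.63-fold lower. On the scale log2(value + 0.1), the log2 fold change was −1.35 (standard error 0.159, 95% interval −1.72 to −0.98, adjusted p = 4.69e-05 from limma). This p-value, like those that follow, carries the Benjamini-Hochberg adjustment for all 2579 genes, and an adjusted p below 0.01 was the threshold for a call.

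*LsYUC4b* fell further. Its values were 0.562, 1.5 and 0.929 in the *LsAP2*-OE libraries, against 5.40, 5.38 and 5.99 in the WT libraries. The WT libraries were close together, while *LsAP2*-OE replicate 2 stood well above *LsAP2*-OE replicate 1, and the groups did not overlap. The mean of *LsYUC4b* was 0.997 ± 0.472 in *LsAP2*-OE and 5.59 ± 0.345 in WT (SD, n = 3 each), which is 5.61-fold lower (log2 fold change −2.46, standard error 0.296, adjusted p = 5.36e-05 from limma). Its coefficient of variation was 47.4% in *LsAP2*-OE and 6.18% in WT.

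*LsYUC6* (Lsat_1_v5_gn_1_48821) is described as YUCCA6, an enzyme of the same step. Its values were 0.385, 0.585 and 0.592 in the *LsAP2*-OE libraries, against 1.17, 1.70 and 2.09 in the WT libraries. The groups did not overlap, although the WT libraries were spread widely. Its mean was 0.521 ± 0.118 in *LsAP2*-OE and 1.66 ± 0.460 in WT (SD, n = 3 each). The log2 fold change was −1.48 (standard error 0.265), and its adjusted p of 6.02e-04 from limma was the largest among the 10 genes. Averaged over the 3 *YUC* genes, log2(value + 0.1) was −0.22, 0.27 and 0.19 in the *LsAP2*-OE libraries, against 1.65, 1.9 and 1.995 in the WT libraries.

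**Figure D1:**
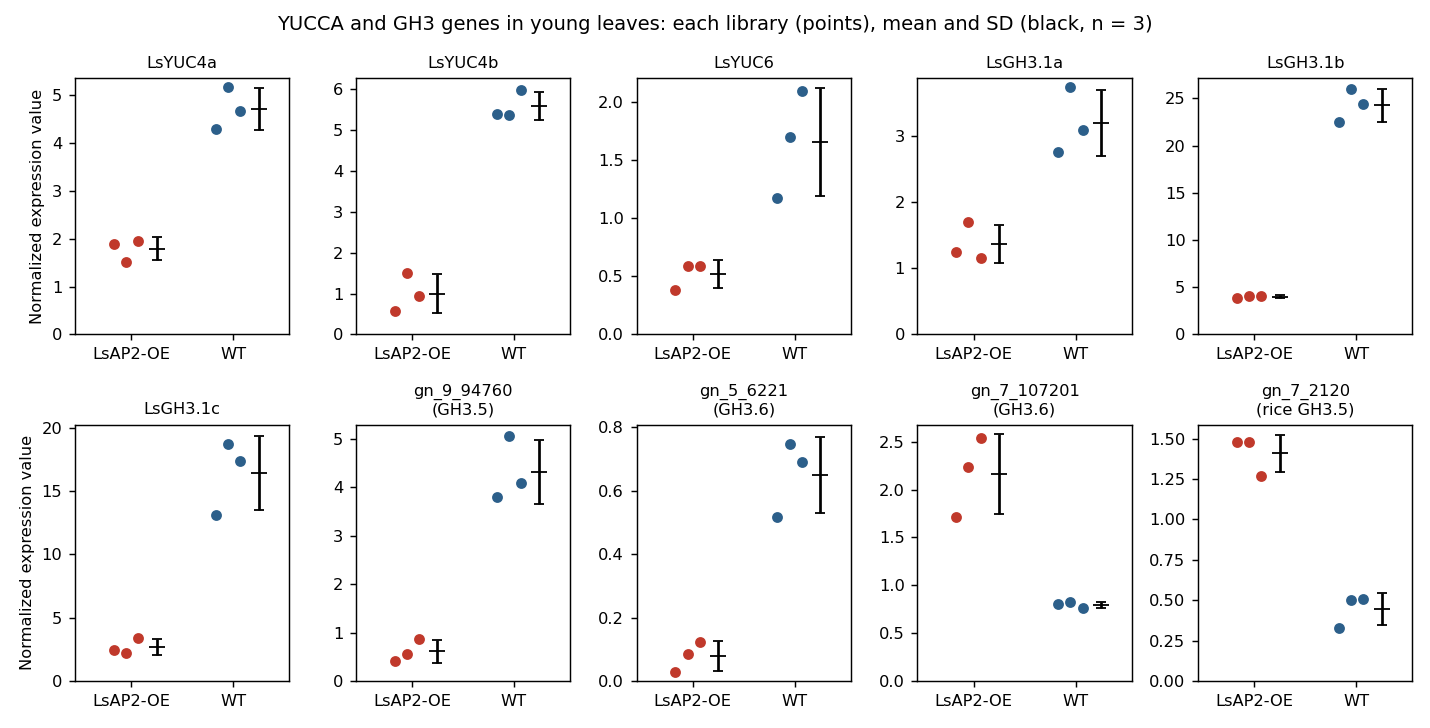
Normalized expression value (vertical axes, each from 0 on its own scale) of the 3 *YUC* and 7 *GH3* genes in each *LsAP2*-OE library (red points) and each WT library (blue points), with the mean and SD of each group in black (n = 3). In every panel the groups are apart, with *LsAP2*-OE below WT in 8 genes and above WT in gn_7_107201 and gn_7_2120, which are the *GH3* genes Lsat_1_v5_gn_7_107201 and Lsat_1_v5_gn_7_2120.

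At an adjusted p below 0.01, 8 of the 10 genes were lower and 2 higher in *LsAP2*-OE leaves. Of all 2579 genes of the table, 39.6% were lower, 59.1% were higher and 98.7% were called in either direction. The groups did not overlap for any of the 10 genes, 8 with *LsAP2*-OE below WT and 2 above. Over the table, *LsAP2*-OE was wholly below WT for 39.7% of the genes, wholly above for 59.6%, and apart in either direction for 99.4%. That all 10 genes passed therefore repeats the choice of genes for the table. Genes of both directions are in the table, and the median log2 fold change was −1.79 over the 10 genes and 1.03 over all genes. No test was made of this difference between the list and the table. The table has a median log2 fold change of −1.49 over its 1031 genes that were lower in *LsAP2*-OE and of 1.38 over its 1548 genes that were higher.

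The genes *LsGH3.1a*, *LsGH3.1b* and *LsGH3.1c* are described as the probable IAA-amido synthetase GH3.1. All 3 were lower in *LsAP2*-OE leaves. *LsGH3.1b* (Lsat_1_v5_gn_2_84761) had values of 3.85, 4.06 and 4.11 in the *LsAP2*-OE libraries, against 22.5, 26.0 and 24.4 in the WT libraries. No library of either group came near the other group, and the *LsAP2*-OE libraries were nearly equal. Its mean was 4.01 ± 0.143 in *LsAP2*-OE and 24.3 ± 1.74 in WT (SD, n = 3 each), which is 6.05-fold lower. The log2 fold change was −2.57 (standard error 0.0889, 95% interval −2.77 to −2.36), and its adjusted p of 7.81e-08 from limma was the smallest among the 10 genes.

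*LsGH3.1c* (Lsat_1_v5_gn_4_162960) had values of 2.44, 2.17 and 3.4 in the *LsAP2*-OE libraries, against 13.1, 18.7 and 17.4 in the WT libraries. The groups were far apart, with WT replicate 1 the lowest of the WT libraries. Its mean was 2.67 ± 0.645 in *LsAP2*-OE and 16.4 ± 2.93 in WT (SD, n = 3 each), which is 6.15-fold lower (log2 fold change −2.58, standard error 0.193, adjusted p = 3.08e-06 from limma).

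*LsGH3.1a* (Lsat_1_v5_gn_5_116820) fell least of the 8 lower genes. Its values were 1.24, 1.70 and 1.16 in the *LsAP2*-OE libraries, against 2.75, 3.73 and 3.08 in the WT libraries. The groups did not overlap. Its mean was 1.37 ± 0.290 in *LsAP2*-OE and 3.19 ± 0.496 in WT (SD, n = 3 each), which is 2.33-fold lower (log2 fold change −1.17, standard error 0.203, adjusted p = 4.93e-04 from limma). Its place as the smallest fall rests on the pseudocount. With 1, *LsGH3.1a* was at −0.82, and Lsat_1_v5_gn_5_6221 (−0.61) and *LsYUC6* (−0.79) fell less.

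The other 4 *GH3* genes are described as GH3.5 or GH3.6. In *Arabidopsis* the enzymes of these names conjugate IAA, and GH3.5 also acts on salicylic acid. The match of Lsat_1_v5_gn_7_2120 is a rice protein named GH3.5, so these *Arabidopsis* roles are not carried over to it. The GH3.5-described gene Lsat_1_v5_gn_9_94760 had values of 0.414, 0.551 and 0.865 in the *LsAP2*-OE libraries, against 3.81, 5.06 and 4.09 in the WT libraries. Every *LsAP2*-OE library was below 1, and every WT library was well above it. Its mean was 0.610 ± 0.231 in *LsAP2*-OE and 4.32 ± 0.654 in WT (SD, n = 3 each), which is 7.08-fold lower. Its log2 fold change was −2.68 with a standard error of 0.258 (limma, adjusted p = 1.35e-05). It fell most among the 10 genes on this scale and stood at rank 104 of the 2579 genes from the largest fall. That order rests on the pseudocount. With 1 the largest fall was that of *LsGH3.1b* (−2.33), and with 0.01 that of Lsat_1_v5_gn_5_6221 (−3.07).

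The GH3.6-described gene Lsat_1_v5_gn_5_6221 was barely measured in *LsAP2*-OE leaves. Its values there were 0.0278, 0.0834 and 0.124, against 0.517, 0.747 and 0.690 in the WT libraries. The groups did not overlap, but the *LsAP2*-OE libraries varied with a coefficient of variation of 61.7%, against 18.4% in WT. Its mean was 0.0785 ± 0.0485 in *LsAP2*-OE and 0.651 ± 0.120 in WT (SD, n = 3 each), which is 8.29-fold lower. The size of its fitted change rests on the pseudocount, since the log2 fold change was −2.10 (standard error 0.266, adjusted p = 7.41e-05 from limma) with a pseudocount of 0.1, −0.61 with 1 and −3.07 with 0.01.

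The remaining pair of *GH3* genes rose. The other GH3.6-described gene, Lsat_1_v5_gn_7_107201, had values of 1.71, 2.24 and 2.54 in the *LsAP2*-OE libraries, against 0.802, 0.822 and 0.761 in the WT libraries. All *LsAP2*-OE libraries were above all WT libraries, and the WT libraries differed little. Its mean was 2.17 ± 0.419 in *LsAP2*-OE and 0.795 ± 0.0313 in WT (SD, n = 3 each), which is 2.72-fold higher (log2 fold change 1.32, standard error 0.200, adjusted p = 2.19e-04 from limma).

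Lsat_1_v5_gn_7_2120, whose closest Swiss-Prot protein is the probable IAA-amido synthetase GH3.5 of rice, had values of 1.48, 1.48 and 1.27 in the *LsAP2*-OE libraries, against 0.329, 0.503 and 0.505 in the WT libraries. The groups did not overlap. Its mean was 1.41 ± 0.117 in *LsAP2*-OE and 0.446 ± 0.101 in WT (SD, n = 3 each), which is 3.16-fold higher (log2 fold change 1.48, standard error 0.216, adjusted p = 1.75e-04 from limma). The *GH3* genes of the table thus changed in both directions, 5 lower and 2 higher, and a shared description did not go with a shared direction for the GH3.6-described pair.

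**Figure D2:**
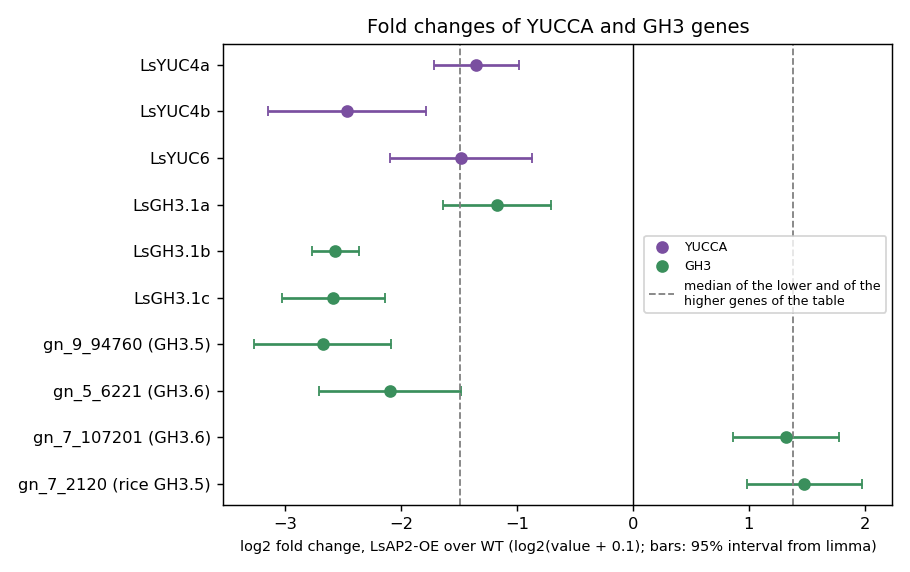
Log2 fold change of each *YUC* gene (purple) and *GH3* gene (green), *LsAP2*-OE over WT, on the scale log2(value + 0.1), with the 95% interval from limma as bars. Dashed lines give the medians of the lower genes (−1.49) and of the higher genes (1.38) of the table. The lower genes run from −2.68 to −1.17, and the 2 higher *GH3* genes sit at 1.32 and 1.48.

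Genes described by the same protein, called copies here on that description alone, were then compared within each library. The measure was the log2 ratio of their values, which library scaling cannot change. Of the copies with names, 4 pairs were compared, and the exact permutation test, two-sided, of 3 libraries against 3 cannot give a p below 0.1. The log2 ratio of *LsGH3.1a* to *LsGH3.1b* was −1.63, −1.26 and −1.83 in the *LsAP2*-OE libraries, against −3.03, −2.80 and −2.98 in the WT libraries. The groups did not overlap, and the ratio was higher by 1.36 (standard error 0.181) in *LsAP2*-OE. In other words, *LsGH3.1a* lost less than *LsGH3.1b* in all 3 *LsAP2*-OE libraries. The log2 ratio of *LsGH3.1a* to *LsGH3.1c* was −0.98, −0.36 and −1.55 in *LsAP2*-OE and −2.25, −2.33 and −2.50 in WT, higher by 1.40 (standard error 0.354) in *LsAP2*-OE. Both comparisons gave the smallest p the design allows (exact permutation p = 0.1, adjusted p = 0.133 over the 4 pairs), which is not below 0.05.

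For *LsGH3.1b* over *LsGH3.1c*, the log2 ratios overlapped. They were 0.65, 0.90 and 0.28 in the *LsAP2*-OE libraries, against 0.78, 0.47 and 0.48 in the WT libraries, with a difference of 0.03 (standard error 0.208, exact permutation p = 1). The standard error leaves room for a modest difference in either direction. The log2 ratio of *LsYUC4a* to *LsYUC4b* was 1.75, 0.01 and 1.08 in *LsAP2*-OE, against −0.33, −0.06 and −0.36 in WT. The difference of 1.2 (standard error 0.514, exact permutation p = 0.1, adjusted p = 0.133 over the 4 pairs) rested on widely spread *LsAP2*-OE libraries, and in *LsAP2*-OE replicate 2 the ratio was close to that of WT replicate 2. The difference was 0.80 without *LsAP2*-OE replicate 1. The GH3.6-described pair was compared after its values had been seen and was not tested. The log2 ratio of Lsat_1_v5_gn_7_107201 to Lsat_1_v5_gn_5_6221 was 5.95, 4.75 and 4.35 in *LsAP2*-OE and 0.64, 0.14 and 0.14 in WT. Its size rests on the very low *LsAP2*-OE values of Lsat_1_v5_gn_5_6221. With 0.1 added to both values, which was also chosen after seeing the data, the log2 ratio was 3.83, 3.67 and 3.56 in *LsAP2*-OE and 0.55, 0.12 and 0.12 in WT. Copies of a family can share reads, so the split of reads between copies is uncertain for all of these ratios.

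**Figure D3:**
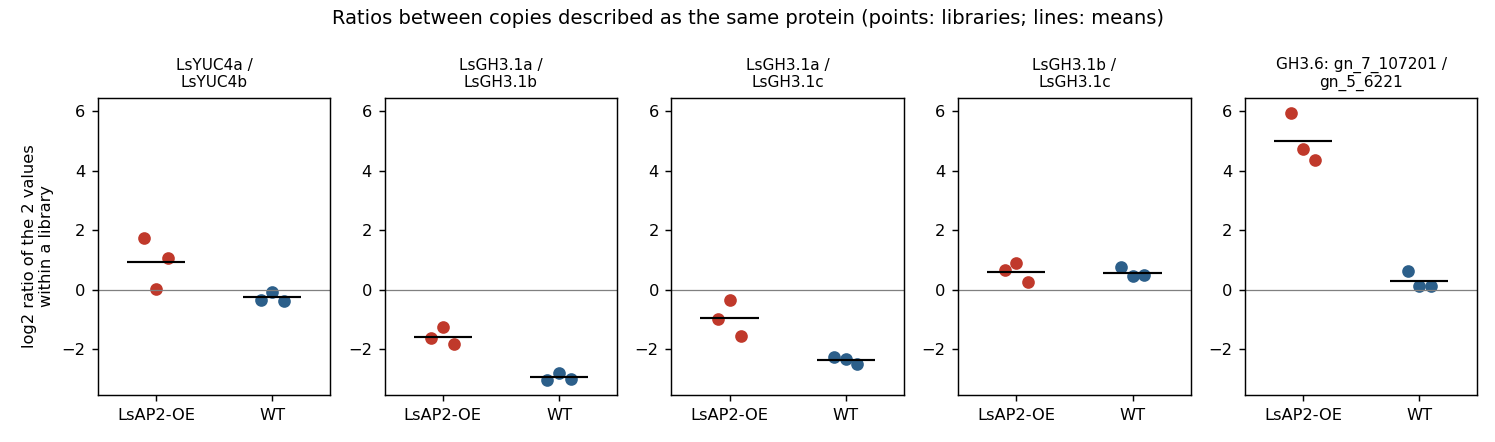
Log2 ratio, within a library, of the values of paired genes described by the same protein (vertical axis, shared by the panels). *LsAP2*-OE libraries are red and WT libraries blue, with group means as lines. Ratios with *LsGH3.1a* on top and the GH3.6-described ratio sit higher in all *LsAP2*-OE libraries, whereas *LsGH3.1b* over *LsGH3.1c* overlaps between the groups.

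One WT library was low for most of the 10 genes. WT replicate 1 held the lowest WT value for 8 of the 10 genes, which were 7 of the lower genes and 1 higher gene, and the highest for 0. Over all 2579 genes, WT replicate 1 held the lowest WT value for 43.2% and the highest for 33.2%. With every library scaled to the same listed sum, it held the lowest value for 10 of the 10 genes and for 64.6% of all genes. WT replicate 1 has the largest listed sum, 112997, against 97790 and 100310 in the other WT libraries. This scaling therefore lowered its values against those of the other WT libraries, so the count of 10 depends on the sum used. The sum covers only the called genes, and the 78 histone genes alone summed to 41420 to 55220 in the WT libraries. Without WT replicate 1, the 10 genes had the same calls, 8 lower and 2 higher. Among the *LsAP2*-OE libraries, replicate 1 held the lowest value for 6 of the 10 genes and for 34.4% of all genes. Coefficients of variation over the 10 genes had a median of 21.9% in *LsAP2*-OE and 15.4% in WT, against 10% and 13% over all genes. These medians were not matched for the size of the values. Those ran from 0.0278 to 26.0 in the 10 genes and up to 9650 over the table.

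**Figure D4:**
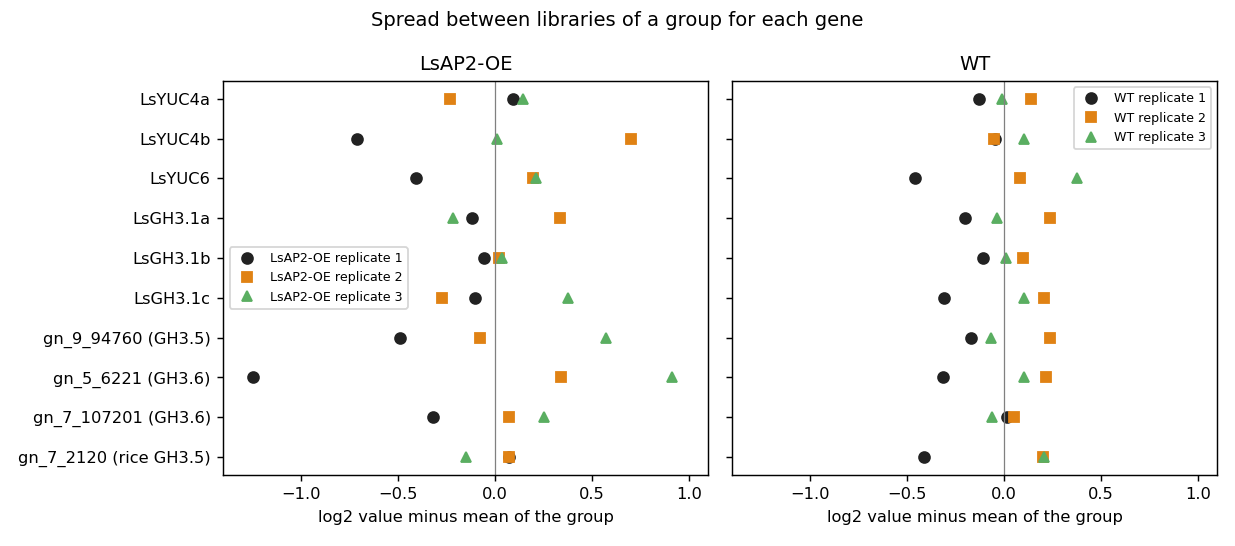
Log2 value of each gene in each library minus the mean of its group (horizontal axes, same range), for *LsAP2*-OE (left) and WT (right), with 1 symbol per replicate. WT replicate 1 (black circles) is the lowest WT library in 8 of the 10 genes, and the widest spread is that of Lsat_1_v5_gn_5_6221 in *LsAP2*-OE.

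Other genes that make or inactivate IAA were sought in the table by their descriptions. On the synthesis side, 1 gene was found, and it was higher. It is described as amidase 1 (Lsat_1_v5_gn_2_64320), an enzyme that in *Arabidopsis* releases IAA from indole-3-acetamide, and its values were 22.7, 23.2 and 22.3 in *LsAP2*-OE and 10.2, 10.8 and 9.82 in WT (log2 fold change 1.14, standard error 0.0725, adjusted p = 1.26e-06 from limma). No tryptophan aminotransferase and no auxin receptor was found among the listed genes.

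On the inactivation side, all 4 genes found were higher in *LsAP2*-OE leaves. Of these, 3 are described as UGT84B1, an *Arabidopsis* enzyme that attaches glucose to IAA. Lactuca_sativa_newGene_2389 had values of 9.25, 9.18 and 9.88 in the *LsAP2*-OE libraries, against 0.179, 0.162 and 0.110 in the WT libraries. Its log2 fold change was 5.26 (standard error 0.184, adjusted p = 7.87e-08 from limma) with a pseudocount of 0.1, and 3.18 with 1. Lactuca_sativa_newGene_2390, with the same description, had values of 12, 12.9 and 9.17 in *LsAP2*-OE and 0.171, 0.343 and 0.295 in WT (log2 fold change 4.97, standard error 0.237, adjusted p = 3.09e-07 from limma), and its log2 fold change was 3.27 with a pseudocount of 1. Both were near 0 in every WT library. They are gene models added by the authors, and reads shared between them are possible. The third, Lsat_1_v5_gn_5_115100, had values of 1.53, 1.55 and 2.01 in *LsAP2*-OE and 0.454, 0.0737 and 0.123 in WT (log2 fold change 2.68, standard error 0.410, adjusted p = 2.37e-04 from limma). With a pseudocount of 1, its log2 fold change was 1.16.

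The fourth gene (Lsat_1_v5_gn_0_36880) is described as IAMT1, which methylates IAA. Its values were 1.00, 1.47 and 1.52 in *LsAP2*-OE and 0.394, 0.456 and 0.603 in WT (log2 fold change 1.29, standard error 0.240, adjusted p = 7.71e-04 from limma). The genes listed under IAA inactivation were therefore not uniform in direction, with 5 *GH3* genes lower and 2 *GH3* genes, 3 UGT84B1-described genes and the IAMT1-described gene higher. Their place in this list rests on descriptions alone. Whether the rice-matched Lsat_1_v5_gn_7_2120 acts on IAA was not tested.

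Downstream of IAA, the table holds 3 *AUX/IAA* genes, repressors of the auxin response, of which 3 were higher (log2 fold changes 0.95 to 2.92). Of 4 auxin response factor (*ARF*) genes, 3 were lower and 1 higher. Of 7 *SAUR* genes, early auxin response genes, 5 were lower and 2 higher, and of 5 genes of auxin transport 3 were lower and 2 higher. Over the 24 auxin genes of these lists, 13 were higher and 11 lower, with a median log2 fold change of 0.94, against 1.03 over all genes. These counts stand beside 59.1% higher and 39.6% lower over the table, and the split of the 24 genes is near those shares.

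**Figure D5:**
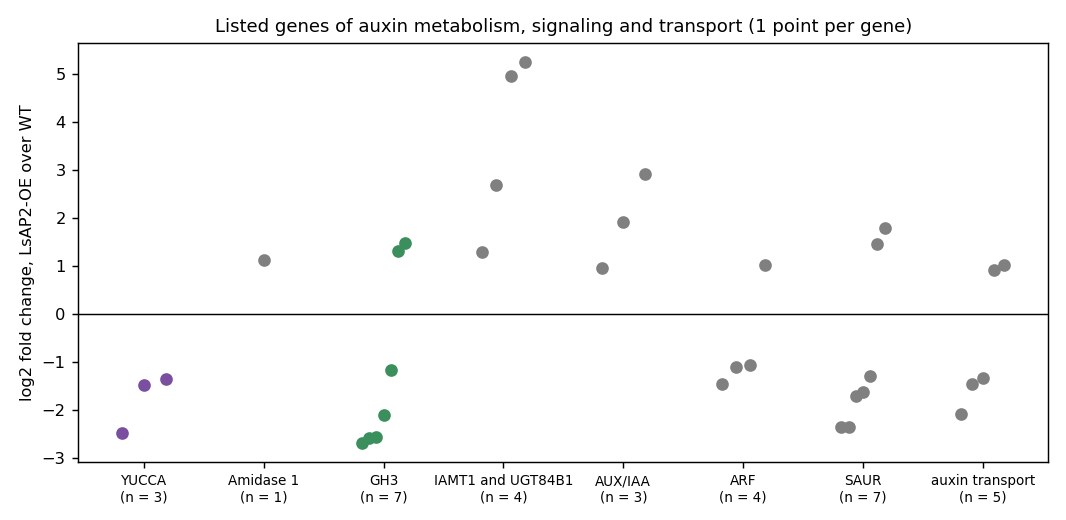
Log2 fold change, *LsAP2*-OE over WT, on the scale log2(value + 0.1), for each listed gene (1 point per gene) of IAA synthesis (*YUC*, amidase 1), IAA inactivation (*GH3*, IAMT1 and UGT84B1), auxin signaling (*AUX/IAA*, *ARF*, *SAUR*) and auxin transport. The *YUC* genes lie between −2.46 and −1.35, the *GH3* genes on both sides of 0, and the IAMT1-described and UGT84B1-described genes between 1.29 and 5.26.

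The leaves also differed in markers of other cell states. The marker lists hold only genes that the authors had called, so genes of these kinds that were not called are missing. Over the table, 39.6% of the genes were lower and 59.1% higher. All 11 genes of DNA replication in the list were lower, with a summed value of 487 to 508 in *LsAP2*-OE and of 1226 to 1265 in WT. Of 7 genes put under meristem and boundary by their descriptions alone, 5 were lower and 2 higher. Their summed value was 22.96 to 24.2 in *LsAP2*-OE and 43.7 to 54.0 in WT. Much of that sum came from a gene described as knotted-1-like 3 (8.65, 11.1 and 8.19 in *LsAP2*-OE, 32.0, 20.9 and 27.8 in WT). The other lower genes are described as CUP-SHAPED COTYLEDON 2 or 3 and JAGGED. The higher ones are described as CLAVATA1 and LIGHT-DEPENDENT SHORT HYPOCOTYLS 6. This mixed list gives no direction for meristem genes alone. All 78 histone genes were lower (15470 to 16180 in *LsAP2*-OE, 41420 to 55220 in WT). All 15 genes of the xylem list, most of them described as laccases, were higher (69.6 to 73.0 in *LsAP2*-OE, 27.4 to 32.6 in WT). So were 3 of 4 phloem genes (135 to 145 in *LsAP2*-OE, 71.6 to 82.3 in WT). The part of these marker genes in the *YUC* and *GH3* values was not tested, and in whole leaves fewer cells of a type and less RNA per cell cannot be told apart. The 14 leaf genes of the table, Rubisco small chains and chlorophyll a-b binding proteins, were measured in every library but went in both directions. They cannot tell young leaves from other green tissue. All 6 Rubisco small chain genes were higher, with summed values of 16950 to 19690 in *LsAP2*-OE and of 6074 to 6512 in WT. All 8 chlorophyll a-b binding genes were lower, with summed values of 1001 to 1166 in *LsAP2*-OE and of 2615 to 3258 in WT.

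Finally, for each of the 10 genes the described gene with the most similar profile over the 6 libraries was sought, as the smallest Euclidean distance between log2(value + 0.1) profiles centred on their means. Nearly all genes of the table separate the groups, so a close profile is largely a like fold change, and the names are given only as a description. The smallest distances ran from 0.112 to 0.457. The closest profile to *LsYUC4a* was that of a receptor-like protein kinase (Lsat_1_v5_gn_6_114601, distance 0.112), and the closest to *LsGH3.1b* that of a gene described as a dynein light chain (Lsat_1_v5_gn_4_12901, distance 0.185). A gene described as snakin-1 (Lsat_1_v5_gn_1_23380, distance 0.153) was closest to *LsGH3.1a*. For *LsYUC4b* it was a gene described as NSE4A (Lsat_1_v5_gn_2_101200, 0.303), for *LsYUC6* an ankyrin repeat protein (Lsat_1_v5_gn_8_23521, 0.327), and for *LsGH3.1c* an F-box protein (Lsat_1_v5_gn_7_16521, 0.457). Of the higher *GH3* genes, Lsat_1_v5_gn_7_107201 was closest to *CP12-2* (Lsat_1_v5_gn_5_46341, distance 0.149), a regulator of the Calvin cycle, and Lsat_1_v5_gn_7_2120 to an ABC transporter gene (Lsat_1_v5_gn_2_90660, distance 0.138). For Lsat_1_v5_gn_9_94760 it was a gene described as ABSCISIC ACID-INSENSITIVE 5-like protein 7 (Lsat_1_v5_gn_9_111140, 0.440), and for Lsat_1_v5_gn_5_6221 a plastid ribosomal protein S21 gene (Lsat_1_v5_gn_5_13260, 0.184).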

How the data were processed

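Per the study's methods and the submitters' processing notes, HISAT2 was the aligner and DESeq the caller, with thresholds of 2 on the fold change and 0.01 on the FDR. The sources used here do not name tool versions, the quantifying program or the genome build. The deposited table gives the authors' normalized signal for each called gene and library. Its columns of the authors' own FDR and fold change were not used. Values were analysed as log2(value + 0.1) in R 4.3.3 by limma 3.58.1, using a trended prior variance, all 2579 genes and Benjamini-Hochberg adjustment. Ratios of means used no pseudocount. Permutation tests used scipy 1.17.1 in Python 3.11.15. Replicates are the submitters' biological replicates. Same-numbered libraries did not deviate together from their group means (correlations −0.04 to 0.01), so no block was used. None of the IDs matched the RefSeq gene table (0 matches), so no coordinates or sequences are given, and names are those of the paper or of Swiss-Prot. Pathway genes were found by words in the Swiss-Prot column, which 1949 genes carry. The genes named by ID are the 10 members, *LsAP2*, all genes of the lists of IAA synthesis and inactivation, and the closest profile to each member. Marker genes are named only by description, where the make-up of a list matters. Members, lists and tests were chosen with earlier results of these data known.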

Additional observations from a re-analysis of the deposited data

How the results depend on the processing

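Calls of the 10 *YUC* and *GH3* genes were computed under pseudocounts of 1 and 0.01, a filter on mean value, an untrended prior variance, a block for replicate number, libraries scaled to the same listed sum, an adjusted p below 0.05 and each library left out in turn. In all 128 results obtained, each gene kept its direction and its call. The authors had called these genes on the same libraries, so kept calls are not independent evidence. Over the whole table, the fits with a library left out gave 996 to 1008 lower and 1472 to 1501 higher genes. The threshold of 0.05 was applied to the reported fit itself, so there a gene called at 0.01 could not change. With genes of a mean value of at least 1 alone, Lsat_1_v5_gn_5_6221 and Lsat_1_v5_gn_7_2120 are not tested, so 7 genes were lower and 1 higher, and that of other genes of IAA inactivation was 2 instead of 4. The sizes of low genes moved most. With a pseudocount of 1, the log2 fold change was −0.79 for *LsYUC6*, −1.73 for Lsat_1_v5_gn_9_94760, 0.81 for Lsat_1_v5_gn_7_107201 and 0.74 for Lsat_1_v5_gn_7_2120, and the median over all genes shifted by −0.28. The replicate block gave 8 lower and 2 higher of the 10 genes, and 1018 lower and 1520 higher of all genes, against 1021 and 1525 without it. With each library left out, the largest adjusted p among the 10 genes was 0.00278, for *LsYUC6*, and the difference in log2 ratio of *LsYUC4a* to *LsYUC4b* ranged from 0.80 without *LsAP2*-OE replicate 1 to 1.67 without *LsAP2*-OE replicate 2. That of *LsGH3.1b* to *LsGH3.1c*, which overlapped between the groups, ranged from −0.11 to 0.20. That of the GH3.6-described pair was 4.71, and 3.42 with 0.1 added to both values. Depth is unknown, which limits what the lowest values can show.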
